A study of Mus musculus with 6 samples.

Results

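The miR-378 family of mouse microRNAs (miRNAs) comprises mmu-miR-378a and its copies mmu-miR-378b, mmu-miR-378c and mmu-miR-378d, written below without the species prefix. Its members were taken by name from the 1080 small RNA entries listed for N2A cells, as every mouse-named entry whose name, without its arm, copy number and variant suffix, is miR-378a, miR-378b, miR-378c or miR-378d. There were 5 such entries from 4 hairpin names among 754 mouse-named entries: miR-378a-3p_R+1, miR-378a-5p, miR-378b_R-1, miR-378c_R-1 and miR-378d_1ss6CA. All 5 passed the filter on low values. N2A (Neuro2A) is a line derived from a mouse neuroblastoma, labelled as neuroblast. Small RNA was sequenced from 3 samples given the control siRNA si-NC and 3 given si-circCpsf6, an siRNA against the circular RNA circCpsf6, each at 100 nM with a lipid reagent. No genetic change or other agent is named for either group, and silencing of circCpsf6 itself was not measured here. The comparison asks how the miRNA profile differs when circCpsf6 is silenced.

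miRNAs guide Argonaute proteins to messenger RNAs by pairing through the seed, the bases near the 5′ end. miR-378a is encoded in an intron of Ppargc1b, the gene for the transcriptional coactivator PGC-1β, and both of its arms are known as regulators of mitochondrial and lipid metabolism. Its 3p arm is known to repress carnitine O-acetyltransferase and its 5p arm the Mediator subunit Med13, and the family is abundant in skeletal muscle, heart and brown fat. Less is known of miR-378b, miR-378c and miR-378d, which are encoded elsewhere.

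The mature sequences of miR-378b, miR-378c and miR-378d are shown because the differences between the family's entries rest on very few letters. They come from RefSeq (GRCm38.p6), read 5′ to 3′, with the seed, bases 2 to 8, in capitals.
miR-378b: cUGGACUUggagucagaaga
miR-378c: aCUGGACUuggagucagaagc
miR-378d: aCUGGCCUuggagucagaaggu
miR-378c and miR-378d have different seeds in RefSeq, CUGGACU and CUGGCCU, and the seed of miR-378b, UGGACUU, is that of miR-378c moved by 1 base. The entry listed for miR-378d is a variant. Its suffix names the substitution C6A, counted from 1 at the 5′ end with the RefSeq base first, and with it the seed of the entry reads CUGGACU, the same as for miR-378c. The suffix R-1 is read here as 1 base fewer at the 3′ end, which gives 20 bases for the miR-378c entry and 19 for the miR-378b entry. Read this way, the miR-378c entry equals bases 1 to 20 of the 22-base miR-378d entry, and the miR-378b entry equals bases 2 to 20 of it. Among the RefSeq hairpins Mir378b, Mir378c and Mir378d, the letters of the miR-378b entry occur in both Mir378b and Mir378c. Those of the miR-378c entry occur in Mir378c only, and those of the substituted miR-378d entry in none of the 3. The letters alone therefore do not place the miR-378b or miR-378d entry at a single locus. How reads were assigned between the copies is not given in the sources used here. No sequence of miR-378a was available here, so whether these 3 entries also match miR-378a-3p was not checked. They cannot be taken as products of Mir378b, Mir378c and Mir378d alone. Across the mouse-named entries with a single named substitution and a RefSeq sequence, the base named in the suffix stood at that position in 21 of 23.

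The hairpins are shown to place the mature miRNA, in capitals, on its arm.
Mir378b: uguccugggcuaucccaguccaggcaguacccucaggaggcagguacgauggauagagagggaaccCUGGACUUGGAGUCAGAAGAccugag
Mir378c: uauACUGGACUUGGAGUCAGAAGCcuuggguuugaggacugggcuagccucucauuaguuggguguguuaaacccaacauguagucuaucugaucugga
Mir378d: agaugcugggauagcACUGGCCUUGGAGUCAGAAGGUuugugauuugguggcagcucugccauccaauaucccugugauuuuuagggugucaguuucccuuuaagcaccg
The mature miRNA is near the 3′ end of the Mir378b hairpin (bases 67 to 86 of 92) and near the 5′ end of Mir378c (bases 4 to 24 of 99) and Mir378d (bases 16 to 37 of 110). Mir378b is on the plus strand of chr11:88352773-88352864, in an intron of Msi2 and opposite to its strand. Mir378c is on the minus strand of chr14:46954830-46954928, in an intron of Samd4 and also opposite to its strand. Mir378d is on the minus strand of chr10:126710282-126710391, outside annotated genes, with the nearest, the long noncoding RNA gene Gm47966, 3614 bases away (GENCODE M21). None of the 3 therefore lies in the sense direction of an annotated host gene.

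Library totals of the authors' normalized reads ran from 2570449 to 3268351, and the read depth is unknown. si-NC replicate 3 stood apart, with 578 entries at a value of 1 or more against 747 to 880 in the other 5 libraries, so values without it are given beside the results on the members and lists. The 6 neuronal and neuroendocrine marker miRNAs were all listed and summed to between 131724 and 256933 in si-NC and between 232090 and 384396 in si-circCpsf6. Most of each sum was miR-7a, at 88548 to 238295 with si-NC and 198948 to 364458 with si-circCpsf6. miR-218 was at 14739 to 35424 with si-NC and 12454 to 24693 with si-circCpsf6. miR-138 was at 3287 to 6930 with si-NC and 6776 to 9257 with si-circCpsf6. The other markers were lower, with miR-124 at 183 to 572 with si-NC and 279 to 711 with si-circCpsf6. miR-375 was at 96 to 229 with si-NC and 220 to 313 with si-circCpsf6, and miR-9 at 154 to 180 with si-NC and 83 to 153 with si-circCpsf6. Of the 5 blood markers 3 were listed, summing to at most 17 in any library, with miR-142a and miR-223 not listed. Muscle markers, of which miR-206 was not listed and miR-1a and miR-133a were, summed to between 49 and 132 in si-NC and between 43 and 72 in si-circCpsf6, and the liver marker miR-122 was at 5 or below. The 4 epithelial markers summed to between 124 and 420 in si-NC and between 7 and 54 in si-circCpsf6. The part of these markers in the results was not tested. The labels do not say whether replicates were separate cultures, so p-values reflect the spread among these 6 libraries and that spread may be technical.

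In these cells the family consisted mainly of miR-378a-3p. On the scale of normalized reads, where a whole miRNA gives a read and no length correction applies, the family sum was 15618, 18127 and 7704 across si-NC replicates 1 to 3. Across si-circCpsf6 replicates 1 to 3 it was 11421, 13434 and 8198. The means were 13816 ± 5440 and 11018 ± 2641 (SD, n = 3 for each group here and below), so the si-circCpsf6 mean was 79.7% of that of si-NC, and the groups overlapped. The difference of the means, -2799, became -5855 with si-NC replicate 3 left out and -643 with si-NC replicate 2 left out. As a share of each library's summed values the family held 0.477 ± 0.163% with si-NC and 0.364 ± 0.0694% with si-circCpsf6. miR-378a-3p_R+1 made up 87.2% to 91.9% of the family in si-NC and 83.0% to 88.6% in si-circCpsf6. The order of the levels was miR-378a-3p, miR-378c, miR-378a-5p, miR-378d and miR-378b by the mean over all 6 libraries. The lowest value of each of the first 2 lay above the highest value of the next in that order, the values of miR-378a-5p and miR-378d overlapped, and miR-378b was at 13 or below in every library. By that mean miR-378a-3p ranked 60th among the mouse-named entries, miR-378c 212th, miR-378a-5p 263rd, miR-378d 281st and miR-378b 529th.

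**Figure D1:**
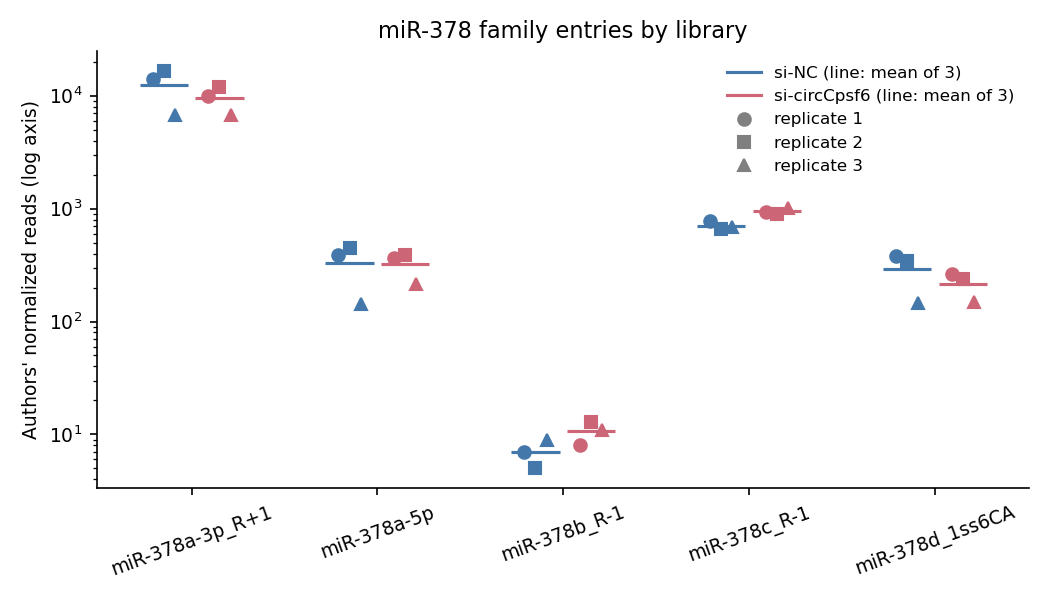
Authors' normalized reads (log axis) of the 5 miR-378 family entries in each library, blue for si-NC and red for si-circCpsf6, with marker shapes for replicates 1 to 3 and lines for group means. The miR-378c entry is the only 1 of the 5 whose groups do not overlap, and replicate 3 is the lowest library of its group for miR-378a-3p, miR-378a-5p and miR-378d.

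Between the groups, no member passed the test across all entries (limma on log2(value + 1), Benjamini-Hochberg adjusted p under 0.05). Of the 916 entries tested 0 passed (0.0% called), and 57 had an unadjusted p under 0.05 (6.22% called), none of them a member. Non-overlapping groups were seen for 11.7% of all entries tested and for 1 of the 5 members, miR-378c. The members went in different directions. The miR-378a-3p and miR-378d entries had lower means in si-circCpsf6, the miR-378c and miR-378b entries higher means, and the miR-378a-5p means were close together. The median log2 change of the 5, that of miR-378a-5p, was 0.085, against 0.086 over all entries tested. It was -0.43 against -0.064 without si-NC replicate 3, and 0.36 against 0.15 without si-circCpsf6 replicate 3. Whether a difference in such bulk libraries comes from fewer cells that make a miRNA or from less of it per cell cannot be told apart.

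miR-378a-3p, the main product of the hairpin, had values of 14072, 16664 and 6721 normalized reads across si-NC replicates 1 to 3. Across si-circCpsf6 replicates 1 to 3 its values were 9846, 11908 and 6804. The first 2 si-NC libraries were the highest of the 6, and si-NC replicate 3 was the lowest, so the groups overlapped. The means were 12486 ± 5158 and 9519 ± 2568, with a log2 change of -0.33 (SE 0.39, 95% interval -1.22 to 0.57, limma adjusted p = 0.924). Without si-NC replicate 3 the log2 change was -0.72, with an unadjusted p of 0.0440 and an adjusted p of 0.336 in limma, where 13.6% of the entries tested had an unadjusted p under 0.05. With si-NC replicate 2 left out it was -0.068, with si-circCpsf6 replicate 3 left out -0.10, with si-NC replicate 1 left out -0.19 and with si-circCpsf6 replicate 2 left out -0.51, so its size changed with the library left out. With array weights per library, which give si-NC replicate 3 little weight (0.146), it was -0.60 with an unadjusted p of 0.0231 and an adjusted p of 0.157 in limma, where 22.9% of the entries had an unadjusted p under 0.05.

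miR-378a-5p, the other arm, had values of 390, 450 and 143 with si-NC, against 363, 388 and 213 with si-circCpsf6, in the order of the replicates. Replicate 3 was again the lowest library in each group. The means of 328 ± 163 and 321 ± 94.6 gave a log2 change of 0.085 (SE 0.51, 95% interval -1.08 to 1.25, limma adjusted p = 0.992). The fit on log values thus gave the opposite order to the means, and the log2 change became -0.43 with si-NC replicate 3 left out and 0.39 with si-NC replicate 2 left out.

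miR-378c, the second most abundant entry of the family, had values of 769, 666 and 684 with si-NC, against 940, 889 and 1020 with si-circCpsf6. All 3 si-circCpsf6 libraries lay above all 3 si-NC libraries, as they did for 62 of the 916 entries tested (6.77%). The means were 706 ± 55.0 and 950 ± 66.0, so the si-circCpsf6 mean was 134% of that of si-NC. The log2 change of 0.43 (SE 0.26, 95% interval -0.17 to 1.03) did not pass the test across all entries (limma adjusted p = 0.735, unadjusted 0.139). In the authors' deposited table this entry had an unadjusted p of 0.00875, 1 of 40 among 1080 entries under 0.05. The limma fit takes the spread of an entry partly from entries of like level, and replicates of miR-378c lay closer together, relative to their mean, than those of the other members. Leaving out any single library moved its log2 change only between 0.37 and 0.49, and without si-NC replicate 3 it was 0.41.

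The miR-378d entry, which carries the C6A substitution and the miR-378c seed, had values of 380, 342 and 147 with si-NC, against 264, 236 and 150 with si-circCpsf6. As with miR-378a-3p, si-NC replicates 1 and 2 were the highest and replicate 3 was low in both groups. Its means were 290 ± 125 and 217 ± 59.4, with a log2 change of -0.34 (SE 0.48, 95% interval -1.43 to 0.75, limma adjusted p = 0.948), or -0.77 without si-NC replicate 3. It was -0.090 without si-NC replicate 1, -0.17 without si-NC replicate 2 and -0.099 without si-circCpsf6 replicate 3. No entry of the unsubstituted miR-378d sequence was among the members. Whether the substituted entry comes from the Mir378d hairpin or from another copy was not tested.

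miR-378b, whose mature form starts 1 base further along, was near the lower end of the listed values, with 7, 5 and 9 for si-NC, against 8, 13 and 11 for si-circCpsf6. The groups overlapped in the values 8 and 9. The means were 7.0 ± 2.0 and 10.7 ± 2.52, and the log2 change was 0.55 (SE 0.83, 95% interval -1.35 to 2.45, limma adjusted p = 0.952), the widest interval of the family. The log2 change became 0.73 with si-NC replicate 3 left out and 0.36 with si-NC replicate 2 left out.

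**Figure D2:**
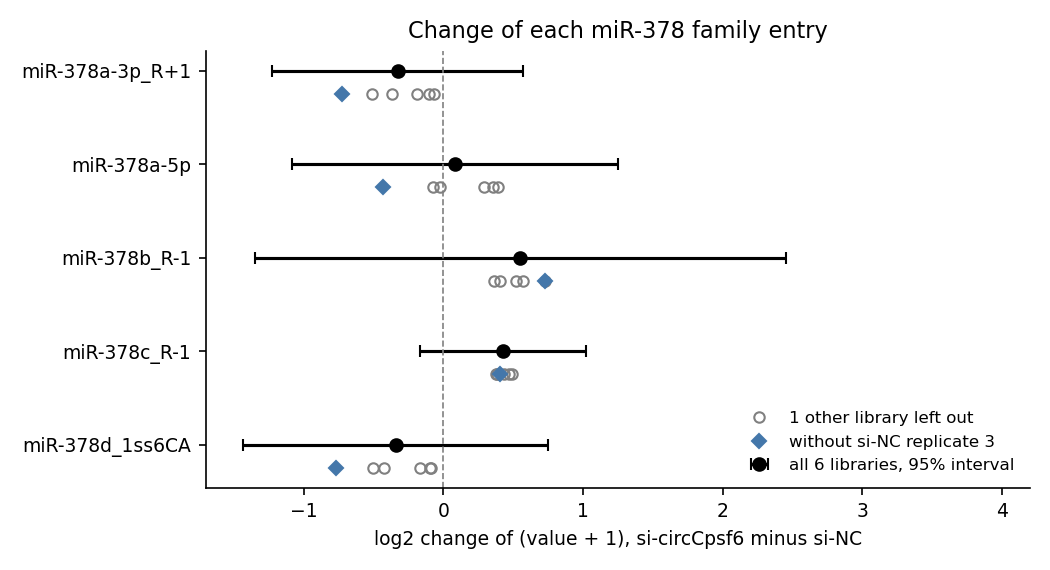
Log2 change of value + 1 in si-circCpsf6 minus si-NC for each family entry, with black points and bars for all 6 libraries and their 95% interval, grey circles for fits with another library left out and blue diamonds for fits without si-NC replicate 3. Every interval includes 0, and the miR-378a-3p and miR-378d changes are -0.72 and -0.77 without si-NC replicate 3, while the miR-378c changes stay between 0.37 and 0.49 with any single library left out.

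Set against miR-378a-3p in the same library, the entries of the family fell into different patterns. The miR-378d entry kept a narrow ratio to miR-378a-3p, with 2.70%, 2.05% and 2.19% of it for si-NC, against 2.68%, 1.98% and 2.20% for si-circCpsf6. The miR-378c entry did not, with 5.46%, 4.0% and 10.2% for si-NC, against 9.55%, 7.47% and 15.0% for si-circCpsf6. Its ratio was highest in replicate 3 of each group, where miR-378a-3p was lowest, and the groups overlapped through si-NC replicate 3. Within the family sum the miR-378c entry made up 5.83 ± 2.72% with si-NC and 9.10 ± 3.01% with si-circCpsf6. These ratios were chosen after the values were seen and were given no test. They do not tell separate members from variants of miR-378a-3p itself, whose sequence was not available here.

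A further 4 entries carry the name miR-378 of another species and are not counted in the family. The most abundant, hsa-miR-378c_R-2_2ss21AG22GC, had values of 818, 992 and 398 with si-NC, against 663, 624 and 431 with si-circCpsf6 (log2 change -0.29, limma adjusted p = 0.948). These were 5.81%, 5.95% and 5.92% of miR-378a-3p for si-NC, against 6.73%, 5.24% and 6.33% for si-circCpsf6. Over the 6 libraries this entry was nearer in pattern to the mouse miR-378a-3p entry, by the likeness measure given below (0.085), than the mouse miR-378c entry was (0.526). Whether the hsa-miR-378c entry is a variant of miR-378a-3p was not checked. The other 3 had values of 0 to 77 in every library.

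**Figure D3:**
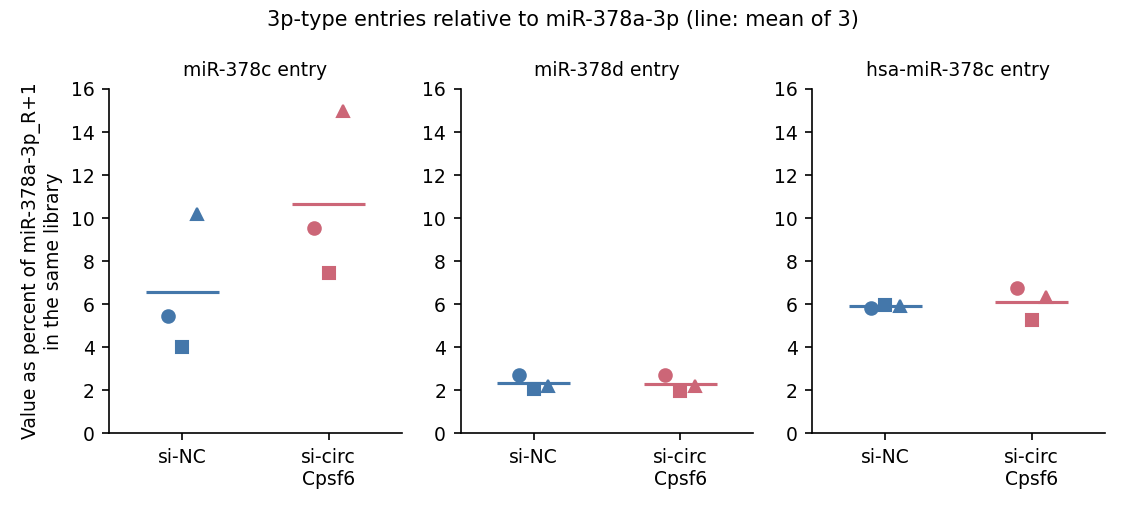
Values of the miR-378c, miR-378d and hsa-miR-378c entries as a percent of the miR-378a-3p_R+1 value of the same library, with marker shapes for replicates 1 to 3 (circle, square, triangle) and lines for group means. The miR-378d and hsa-miR-378c entries stay within 1.98% to 2.70% and 5.24% to 6.73%, while the miR-378c entry runs from 4.0% to 15.0%.

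The balance of the miR-378a arms is a measure within each library that scaling hardly touches. The 3p value was 36.1, 37.0 and 47.0 times the 5p value across si-NC replicates 1 to 3. It was 27.1, 30.7 and 31.9 times the 5p value across si-circCpsf6 replicates 1 to 3. The 3p arm dominated in every library, and all 3 si-circCpsf6 ratios lay below all 3 si-NC ratios. The mean ratio was 40.0 ± 6.05 with si-NC and 29.9 ± 2.50 with si-circCpsf6, and on the log2 scale the difference was -0.41 (two-sided exact permutation p = 0.1, the smallest that 3 against 3 libraries can give, for the 1 ratio tested). Without si-NC replicate 3, the highest ratio, the difference was -0.29. How often the arm ratios of other miRNAs separate the groups was not counted.

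**Figure D4:**
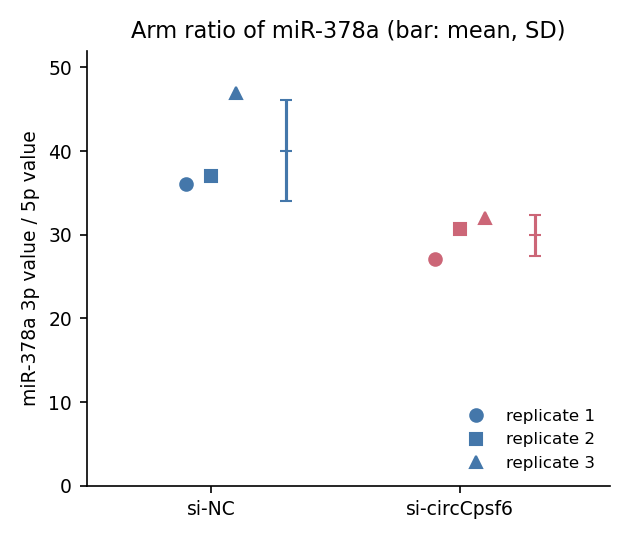
Ratio of the miR-378a 3p value to the 5p value in each library, with points for replicates 1 to 3 and bars for the mean and SD of each group. The si-circCpsf6 ratios lie between 27.1 and 31.9 and the si-NC ratios between 36.1 and 47.0.

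The mouse entries most like miR-378a-3p over the 6 libraries were miR-28a-3p, miR-1198-5p, miR-1a-3p, miR-344d-3-5p and miR-146b-5p_R+2. Likeness was the mean absolute difference of log2(value + 1) after each entry's own mean was subtracted, which was 0.093, 0.121, 0.136, 0.143 and 0.143 for these 5 and had a median of 0.631 over the 517 mouse-named candidates. These entries share libraries and scaling with miR-378a-3p. miR-1a-3p, a muscle miRNA, was low, with 79, 112 and 39 for si-NC, against 57, 58 and 32 for si-circCpsf6. Within the family, miR-378d differed from miR-378a-3p by 0.156 and miR-378a-5p by 0.206, while miR-378c differed by 0.526 and miR-378b by 0.675, near the median of all candidates. Counted among the candidates, miR-378d would rank 10th and miR-378a-5p 21st, so some entries outside the family lay nearer than either. The most abundant of the 5, miR-146b-5p_R+2, had means of 10594 ± 3918 with si-NC and 7997 ± 805 with si-circCpsf6, and none of the 5 passed the limma test.

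**Figure D5:**
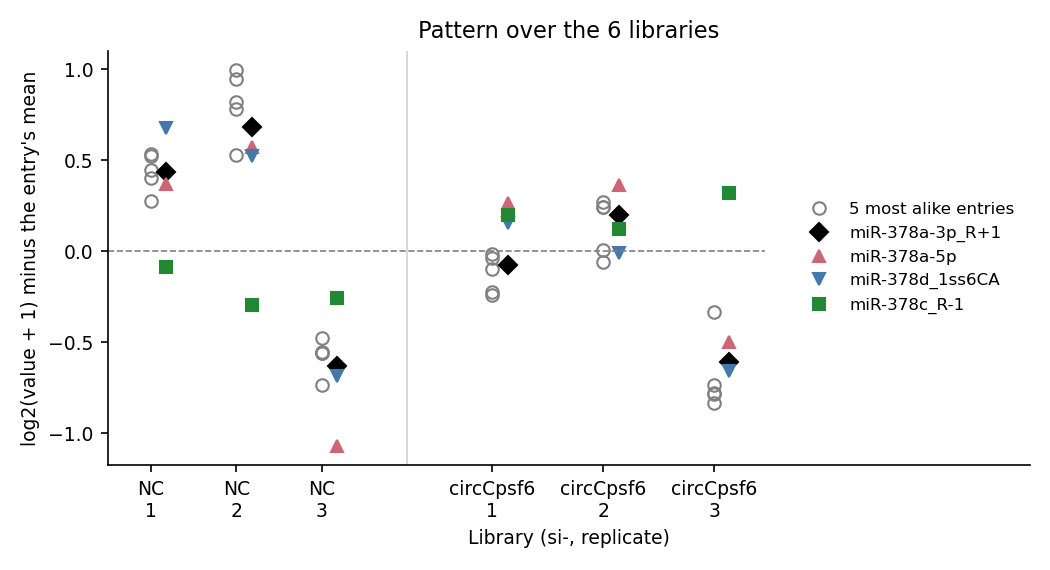
Log2(value + 1) minus each entry's own mean in the 6 libraries, for miR-378a-3p (black), miR-378a-5p, miR-378d, miR-378c and the 5 most alike mouse entries (grey circles). miR-378a-3p, miR-378a-5p and miR-378d are below 0 in replicate 3 of both groups, while miR-378c is below 0 in the 3 si-NC libraries and above 0 in the 3 si-circCpsf6 libraries.

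Other miRNAs known from metabolic control were compared as a list of 34, of which 24 were tested, each by its more abundant arm. None passed the limma test (0 of 24, against 0.0% of all entries), and none had an unadjusted p under 0.05. Their log2 changes were above 0 for 19 and below 0 for 5, with a median of 0.18, against 510 above, 406 below and a median of 0.086 over all entries tested. Single libraries moved this, and each list median below is set against the median over all entries tested in the same fit. The split was 14 to 10 (median 0.085 against 0.17) without si-NC replicate 2 and 17 to 8 (0.11 against 0.16) without si-NC replicate 1. It was 15 to 9 (0.073 against 0.15) without si-circCpsf6 replicate 3 and 16 to 9 (0.12 against -0.064) without si-NC replicate 3. The medians were 0.14 against 0.081 without si-circCpsf6 replicate 1 and 0.26 against 0.082 without si-circCpsf6 replicate 2. The list median thus lay below that of all entries in some of these fits and above it in others. With every library scaled to the same total the split was 16 to 8. The 4 most abundant were miR-27b-3p and miR-143-3p, known from lipid metabolism and adipocytes, miR-29a-3p, known from insulin signalling, and miR-335-5p, known from adipose tissue. Log2 changes were 0.078 (SE 0.34) for miR-27b-3p, 0.16 (SE 0.29) for miR-143-3p and 0.20 (SE 0.29) for miR-335-5p. miR-29a-3p had values of 44778, 42453 and 48633 with si-NC, against 71296, 58017 and 64901 with si-circCpsf6, so its groups did not overlap (log2 change 0.51, SE 0.25, limma adjusted p = 0.735). In 2 of the 24, including miR-29a-3p, all si-circCpsf6 libraries lay above all si-NC libraries, and in 1 all lay below, against 6.77% and 4.91% of all entries tested.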

How the data were processed

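The authors deposited 1 table per library (3 si-NC, 3 si-circCpsf6) with whole-number normalized reads per entry, per the file headers, treated here as a score and not as counts. They also deposited an unadjusted p-value of their own group comparison. The genome build was mm9, per the submitters' processing notes. No source used here gives the aligner, counter or normalization. Samples were grouped by title. Copies among rows with identical values were merged, leaving 1046 of 1080 entries, and the 916 with a mean of 1 or more were tested with limma 3.58.1 (trended variance, R 4.3.3) on log2(value + 1), which was tested on simulated data. The arm ratio was tested by exact permutation (scipy 1.17.1). The text names every family entry, the 4 most abundant members of the metabolic list (chosen from general knowledge) and any past the threshold, and the 5 entries most like miR-378a-3p. The members and lists were chosen with earlier results of these data known. RefSeq supplied sequences for 3 of 4 members. Alternatives were other pseudocounts, filters, scalings and variance models, library weights, a replicate block and leaving out each library.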

Additional observations from a re-analysis of the deposited data

How the results depend on the processing

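No family entry passed under any of the 16 alternatives run, and the log2 changes of miR-378a-3p, miR-378c and miR-378d kept their sign in all 16 (-0.72 to -0.068, 0.34 to 0.49, -0.77 to -0.090), as did miR-378b in the 15 that tested it (0.36 to 0.73). miR-378a-5p changed sign with library weights (-0.23) and when 1 library was left out (-0.43 to 0.39), and the cause was not tested. Over all entries, 31 passed with library weights and 0 to 4 with 1 library left out (4 without si-NC replicate 3). The arm ratio difference stayed between -0.48 and -0.29. The family sum differed by -2799 with all libraries and by -5855 to -643 with 1 left out (-5855 without si-NC replicate 3, -643 without si-NC replicate 2). The median of the metabolic list was 0.099 at equal totals, 0.40 with library weights and 0.073 to 0.26 with 1 library left out. Over all entries tested the median was 0.012 at equal totals, -0.019 with library weights and -0.064 to 0.17 with 1 library left out. With the replicate number as a block the miR-378c change was 0.43 (limma adjusted p = 0.442) and the miR-378a-3p change -0.33 (limma adjusted p = 0.506, unadjusted 0.143). In that fit 0 entries passed and 87 had an unadjusted p under 0.05, against 57 without it. Deviations of same-numbered libraries correlated at 0.047, 0.48 and 0.40 for replicates 1, 2 and 3. The values for replicates 2 and 3 were the highest of all combinations, whereas si-NC replicate 1 correlated best with si-circCpsf6 replicate 2 (0.18). The labels do not say that the numbers are pairs, so the main fit did not use them, and these correlations do not settle it. Read depth is unknown, which limits what can be said of miR-378b.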
